A study of Homo sapiens with 4 samples.

Results

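The 34 genes described here carry glucose into the cell, break it down to pyruvate, export lactate, or sense and answer a lack of oxygen. They were taken from a list of symbols, matched through the GENCODE annotation to the Ensembl identifiers of the count table, and all 34 were found among its 64252 genes. The libraries came from SK-N-BE(2), a human neuroblastoma (NB) cell line with amplified MYCN. Cells received scramble shRNA (sh-Scb, 2 libraries) or sh-SAPCD2 (2 libraries) and were sequenced as total RNA. The study made stable lines by lentiviral transduction and puromycin selection. The labels do not say which of its shRNAs was used, so the sh-SAPCD2 group cannot be set against a second hairpin. Nothing states that the libraries of a group came from separate cultures, and p values therefore measure only the spread between these libraries. No hypoxic culture was part of the series, and the comparison asks how the knockdown altered these transcripts under the culture conditions used for both groups.

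Glycolysis turns a molecule of glucose into pyruvate through a chain of enzymes, most of which exist as isoenzymes from separate genes with different tissue patterns. Hexokinase, phosphofructokinase and pyruvate kinase catalyze its irreversible steps, and lactate dehydrogenase regenerates the cofactor that the chain consumes. When oxygen is short, the prolyl hydroxylases no longer mark the HIF alpha subunits for destruction, and HIF binds DNA at a short core motif and raises the transcription of glucose transporters, many glycolytic enzymes, VEGFA and the gene for the hydroxylase EGLN3 itself. In MYCN-amplified NB, MYCN also binds promoters of glycolytic genes, at the related motif CACGTG.

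The promoter sequences of 3 members show how unevenly the HIF core occurs among genes that changed. HK2 rose and held cores. LDHA fell and held the most ACGTG sites among the members matched. EGLN3, which had the largest rise, held no core in this window. With ACGTG and GCGTG counted together, BNIP3 held 6 sites and ALDOC held 5, as LDHA did, and both BNIP3 and ALDOC rose. SLC2A1, PFKP and PGAM1 also rose and held none. Each sequence is the 250 bases before the RefSeq start nearest to the canonical GENCODE start, in build GRCh38.p14, printed 5′ to 3′ on the strand of the gene. Capitals mark ACGTG or GCGTG on either strand, so that CACGT and CACGC are the same sites read from the other strand and CACGTG counts as a pair of overlapping sites.
HK2: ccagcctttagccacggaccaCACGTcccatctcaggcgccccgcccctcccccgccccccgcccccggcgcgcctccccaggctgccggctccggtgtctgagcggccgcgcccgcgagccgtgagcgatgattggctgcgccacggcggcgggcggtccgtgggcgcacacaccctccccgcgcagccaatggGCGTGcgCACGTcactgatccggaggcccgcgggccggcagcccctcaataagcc
LDHA: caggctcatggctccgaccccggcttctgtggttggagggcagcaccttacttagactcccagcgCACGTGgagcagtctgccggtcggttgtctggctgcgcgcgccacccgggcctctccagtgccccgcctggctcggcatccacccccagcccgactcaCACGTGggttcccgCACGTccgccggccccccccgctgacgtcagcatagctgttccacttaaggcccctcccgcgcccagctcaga
EGLN3: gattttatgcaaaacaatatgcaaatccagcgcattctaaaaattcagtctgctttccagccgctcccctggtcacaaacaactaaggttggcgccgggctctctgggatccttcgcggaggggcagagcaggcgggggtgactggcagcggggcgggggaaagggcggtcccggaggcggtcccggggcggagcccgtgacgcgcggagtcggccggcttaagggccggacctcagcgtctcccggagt

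The HK2 sequence lies at chr2:74833877-74834126 on the plus strand, directly before exon 1, and its far end overlaps an exon of the divergent noncoding gene HK2-DT. The LDHA sequence lies at chr11:18394313-18394562 on the plus strand, and the EGLN3 sequence at chr14:33951075-33951324 on the minus strand. HK2 held 3 sites, of which 2 read ACGTG. LDHA held 5 ACGTG sites, and EGLN3 held 0 sites. Promoters were matched for 31 of the 34 members, and in 25 of these the RefSeq start was the canonical GENCODE start. ACGTG occurred in 16 of the 31 member windows (51.6%) and in 23.5% of 11924 windows of genes tested. GCGTG was less common among members, in 12 of the 31 (38.7%) and in 46.3% of the tested genes. Either core occurred in 23 of the 31 (74.2%) and in 58.1% of the tested genes, and CACGTG in 6 (19.4%) and 9.03%. Among members, either core was present in 7 of 11 that were called higher, in both that were called lower and in 14 of 18 that were not called. ACGTG was present in 7 of the 11, in both that were called lower and in 7 of the 18. PDK1, the other gene that fell, held 2 ACGTG sites. A letter match describes the sequence and is no measure of binding.

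Libraries held 25347900 to 31850997 counts, and 3 counts, taken as the smallest detectable amount, equaled 0.0954 to 0.118 CPM, the count scaled to library size, a floor that covers counting error only. Pearson r of log2 CPM was 0.986 and 0.98 within the groups and 0.954 to 0.961 between them. The share of counts from mitochondrial genes was 7.28% in sh-SAPCD2 replicate 2 and 9.07% to 10.1% in the other libraries. All 10 markers of adrenergic NB were detected, with a summed level of 6559 to 6716 CPM in sh-Scb and 8499 to 10420 CPM in sh-SAPCD2. Of these 10, MYCN rose by over 1 on the log2 scale and 4 fell, DBH, ISL1 and CHGB among them (the last 2 named after their values were seen). The shares were 10% called higher and 40% called lower, against 12.4% and 12.5% of the genes tested. The other 5 did not pass the test. The median log2 fold change of the 10 was -0.16, so the higher sum did not reflect most of these markers. In 5 of them both sh-SAPCD2 libraries lay below both sh-Scb libraries (33.4% of the genes tested), and in 1 above (33.5%). Of 8 markers of mesenchymal-type NB, 7 were tested and PRRX1 was at 0, with sums of 304.5 to 304.6 and 210.0 to 239.0 CPM. Of 5 Schwann cell markers 2 were tested and SOX10 was at 0 (2.54 to 3.91 and 5.01 to 7.28 CPM). Of 5 fibroblast markers 4 were tested (209.0 to 223.2 and 180.2 to 237.4 CPM). Of 6 blood and endothelial markers 2 were tested and CD3E and HBB were at 0 (9.51 to 10.6 and 12.1 to 14.4 CPM). The sums do not show single markers. Of the 7 mesenchymal-type markers tested, 1 rose and 2 fell (14.3% and 28.6%, against 12.4% and 12.5% of the genes tested). In 5 of these 7 both sh-SAPCD2 libraries lay below both sh-Scb libraries (71.4%, against 33.4%), and in 1 above (14.3%, against 33.5%). In the other lists, 1 Schwann cell marker and 1 blood and endothelial marker rose (50% of those tested in each), and 1 fibroblast marker fell (25%). Log2 fold changes of the markers tested ran from -1.26 to 2.36 (mesenchymal-type) and from 0.53 to 1.80 (Schwann cell). They ran from -0.71 to 0.12 (fibroblast) and from 0.30 to 1.36 (blood and endothelial). The part of these marker changes in the results below was not tested.

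SAPCD2 (ENSG00000186193, hg38 chr9:137062127-137070557, minus strand), the targeted gene, was at 83.4 and 82.1 CPM in sh-Scb and at 35.3 and 52.4 CPM in sh-SAPCD2. The groups did not overlap, and the fall was 0.91 on the log2 scale (SE 0.193, edgeR adjusted p = 0.0206), with the lower level in sh-SAPCD2 replicate 1. The adjusted p was 0.0749 when no filter on low counts was applied. Without single libraries the log2 fold change ranged from -1.23 to -0.68. Of the exon bases of SAPCD2, 23.1% overlap other genes, and 19.6% overlap ENSG00000231864 on the other strand. Strand handling of the counts is not given, so reads of this overlap cannot be assigned.

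Compared to sh-Scb, 13 of the 34 genes were higher in SAPCD2-knockdown cells at a Benjamini-Hochberg adjusted p under 0.05 over all genes tested, which is 38.2% of the members against 12.4% of the 18779 genes tested. Those that rose were the glucose transporters SLC2A1 and SLC2A3, the enzymes HK2, PFKP, ALDOA, ALDOC, PGAM1 and ENO2, the lactate transporter SLC16A3, the regulator PFKFB3, the hydroxylase EGLN3, and the HIF targets VEGFA and BNIP3. In bulk RNA, a change in the make-up of the cells and a change in the RNA of each cell cannot be told apart. LDHA and PDK1 fell (5.88% of the members, 12.5% of the genes tested), and 19 members did not pass the test. All 34 members passed the filter on low counts. With the additional threshold of an absolute log2 fold change over 1 that the study used, HK2 and EGLN3 were higher (5.88%, against 4.69% of the genes tested) and LDHA and PDK1 were lower (5.88%, against 5.16%). Both shares past that threshold lay near the background, so the larger share of members called came from changes below 2-fold in size.

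In 24 members (70.6%) both sh-SAPCD2 libraries lay above both sh-Scb libraries, an arrangement found in 33.5% of the genes tested. The opposite held for 3 members, LDHA, PDK1 and PDK3 (8.82%, against 33.4%), and 7 members overlapped. The median log2 fold change was 0.31 over the members and 0.02 over the genes tested, and 27 of the 34 values were above 0. The study's own enrichment table for these libraries names at least 10 of the members (SLC2A3, HK2, PFKP, ALDOA, ALDOC, LDHA, SLC16A3, PFKFB3, EGLN3 and VEGFA), which makes the counts no independent evidence of a direction. That table already lists hypoxia and glycolysis gene sets with positive enrichment scores. It names LDHA in a set of MYC targets with a negative score. With single libraries left out in turn, the median log2 fold change of the members stayed at 0.28 to 0.35. As for all genes tested, the count of members called higher changed with the library left out. It was 4 without sh-Scb replicate 1 (6.45% of the genes tested), 5 without sh-Scb replicate 2 (6.31%), 24 without sh-SAPCD2 replicate 1 (23.3%) and 19 without sh-SAPCD2 replicate 2 (19.0%). Without the filter on low counts it was 6, with 3.09% of 34935 genes called, and SLC2A1, SLC2A3, ALDOA, PGAM1, ENO2, SLC16A3 and PFKFB3 lost their call (adjusted p = 0.0614 to 0.102). HK2, PFKP, EGLN3 and VEGFA kept their call for a rise, and LDHA and PDK1 for a fall, under all 13 alternatives of test, scaling, filter, design and samples.

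**Figure D1:**
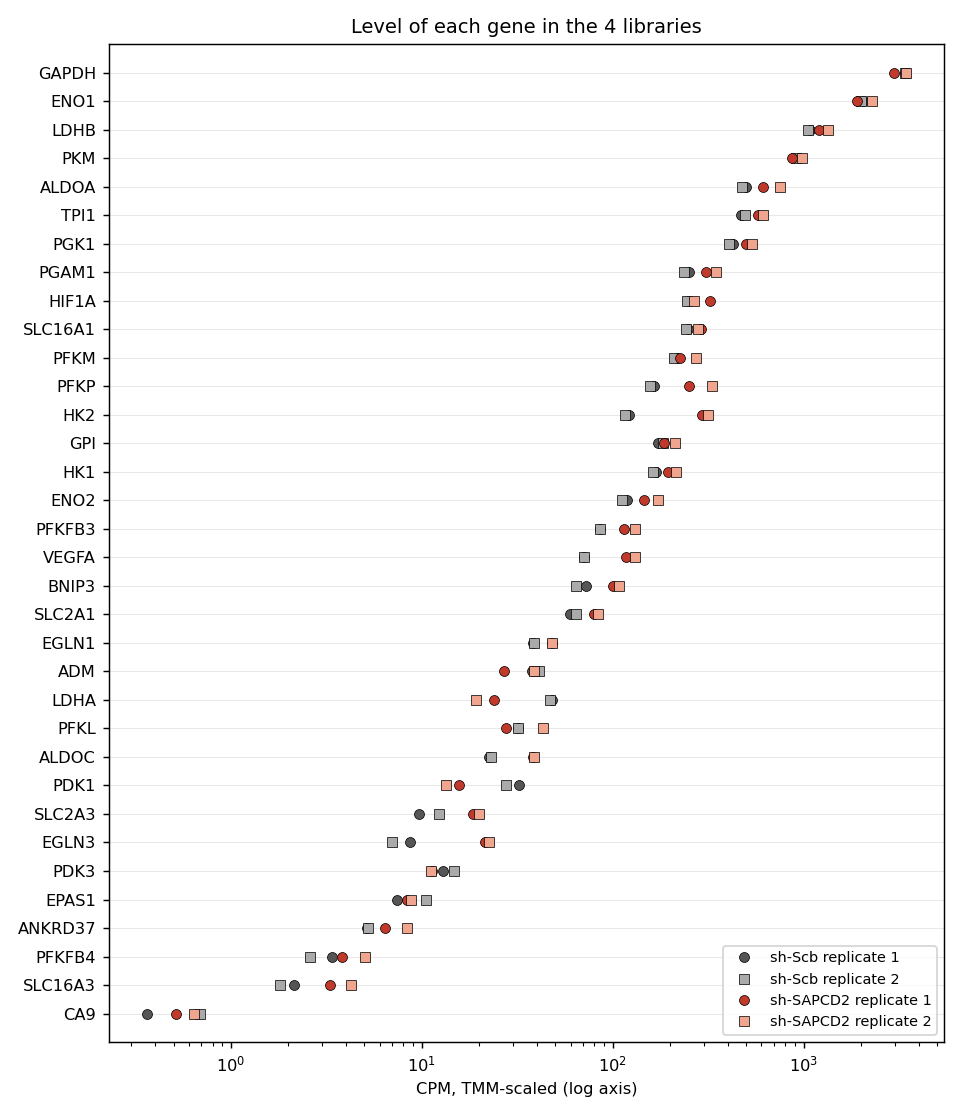
Level of each of the 34 genes in each library, as TMM-scaled CPM on a log axis, with genes ordered by mean level; gray symbols are the sh-Scb libraries and red symbols the sh-SAPCD2 libraries. In 24 genes both red symbols lie to the right of both gray ones, and in LDHA, PDK1 and PDK3 they lie to the left.

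CPM do not correct for gene length, so the order of genes in the plot of levels by library is for display. It shows that the separation of the groups was widest for HK2, EGLN3, LDHA and PDK1. The members as a set also differed between the sh-SAPCD2 libraries. Replicate 2 lay above replicate 1 in 28 of 34 members (82.4%), against 50.5% of all genes tested. Replicate 2 of sh-Scb lay above replicate 1 in 13 members (38.2%, against 50.6%). The median deviation of the members from their mean log2 CPM was -0.17 and -0.15 in sh-Scb replicates 1 and 2, and 0.10 and 0.23 in sh-SAPCD2 replicates 1 and 2.

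Both glucose transporters rose. SLC2A1 encodes GLUT1, the transporter most cell lines depend on. It was at 59.8 and 63.85 CPM in sh-Scb and 79.3 and 83.6 CPM in sh-SAPCD2 (log2 fold change 0.40, SE 0.108, adjusted p = 0.0428). SLC2A3 encodes GLUT3, the high-affinity transporter of neurons, and was at 9.69 and 12.2 CPM in sh-Scb and 18.5 and 20.0 CPM in sh-SAPCD2 (log2 fold change 0.81, SE 0.173, adjusted p = 0.0212). In neither gene did the groups overlap. With the replicate block, which compares libraries of the same number, SLC2A1 kept its log2 fold change of 0.40 but missed the threshold (adjusted p = 0.0735). Neither call was made without sh-Scb replicate 1 (adjusted p = 0.491 for SLC2A1 and 0.191 for SLC2A3), and that of SLC2A1 was not made without sh-Scb replicate 2 (0.354). SLC2A3 has 3 annotated pseudogenes whose counts reached 4.48% of its own.

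Among the enzymes from glucose to triose phosphates, HK2, PFKP, ALDOA and ALDOC rose, none fell and 5 did not pass the test. HK2 (hg38 chr2:74834127-74893359, plus strand) encodes the inducible hexokinase that traps glucose in the cell and can attach to mitochondria. Its level was 121.9 and 115.1 CPM in sh-Scb and 293.6 and 313.8 CPM in sh-SAPCD2, a 2.56-fold rise (log2 fold change 1.36, SE 0.1, adjusted p = 0.00203) in which the groups lay far apart. HK1, the housekeeping hexokinase, was at 167.6 and 162.5 CPM and at 195.2 and 214.9 CPM (log2 fold change 0.31, adjusted p = 0.0701). Per exon length, as transcript level in TPM (defined below with the step totals), HK1 averaged 76.1 against 63.5 for HK2 in sh-Scb, and 95.3 against 163.9 in sh-SAPCD2. GPI, which converts glucose 6-phosphate to fructose 6-phosphate, ranged from 172.7 to 212.7 CPM over the libraries (log2 fold change 0.16, adjusted p = 0.332).

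Of the phosphofructokinase genes, whose products form the committed step of glycolysis, PFKP, the platelet type, rose. It was at 164.4 and 156.8 CPM in sh-Scb and 249.3 and 329.5 CPM in sh-SAPCD2 (log2 fold change 0.85, SE 0.149, adjusted p = 0.0121). The sh-SAPCD2 libraries were both higher but differed from each other by more than the sh-Scb libraries did. PFKM, the muscle type, had a log2 fold change of 0.22 (adjusted p = 0.218), and 7.12% of its exon bases overlap SENP1 on the other strand. SENP1 was lower in sh-SAPCD2 (log2 fold change -0.75, edgeR adjusted p = 0.0101). PFKL, the liver type, was at 31.8 and 32.0 CPM in sh-Scb and 27.7 and 42.9 CPM in sh-SAPCD2, so that its groups overlapped (log2 fold change 0.15, adjusted p = 0.651).

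Aldolase splits fructose 1,6-bisphosphate, and both of its genes on the list rose. ALDOA, the ubiquitous form, was at 495.7 and 472.3 CPM in sh-Scb and at 613.4 and 746.6 CPM in sh-SAPCD2 (log2 fold change 0.49, SE 0.121, adjusted p = 0.0324). ALDOC, the brain form, was at 22.5 and 23.0 CPM and at 38.0 and 38.5 CPM (log2 fold change 0.75, SE 0.122, adjusted p = 0.01), with very little spread in either group. Without sh-Scb replicates 1 and 2 in turn, the adjusted p of ALDOA was 0.215 and 0.305, and that of ALDOC was 0.111 and 0.0948. TPI1, which interconverts the triose phosphates, was at 471.5 and 490.9 CPM and at 575.4 and 611.4 CPM; the groups did not overlap but the test was not passed (log2 fold change 0.30, adjusted p = 0.0614).

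**Figure D2:**
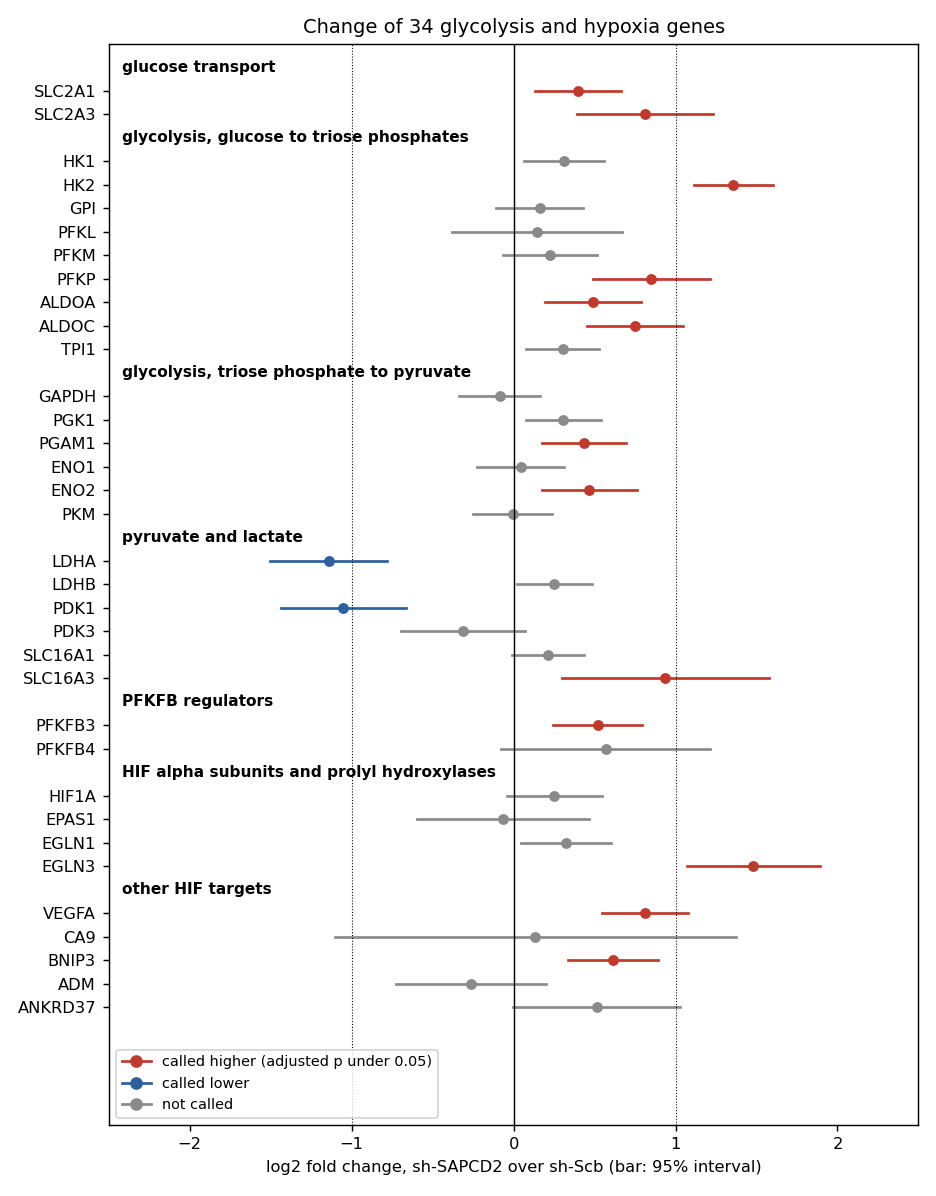
Log2 fold change of each gene, sh-SAPCD2 over sh-Scb, with its 95% interval from edgeR, grouped by role; red points were called higher, blue points lower and gray points were not called, and dotted lines mark a log2 fold change of 1 in either direction. HK2 (1.36) and EGLN3 (1.48) lie beyond the right line, LDHA (-1.14) and PDK1 (-1.05) beyond the left one, and the interval of CA9 is the widest.

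From triose phosphate to pyruvate, PGAM1 and ENO2 rose and the other 4 genes did not pass the test. PGAM1, a phosphoglycerate mutase, was at 250.8 and 235.2 CPM in sh-Scb and 308.8 and 348.2 CPM in sh-SAPCD2 (log2 fold change 0.44, SE 0.107, adjusted p = 0.0315). ENO2, the neuronal enolase that serves as a serum marker of NB, was at 118.9 and 111.5 CPM and at 145.8 and 172.9 CPM (log2 fold change 0.47, SE 0.121, adjusted p = 0.0365). For both genes all values of sh-SAPCD2 exceeded those of sh-Scb, although neither call was made without sh-Scb replicate 1 (adjusted p = 0.277 and 0.245) or replicate 2 (0.415 and 0.373). PGK1, the first of the enzymes here that yield ATP, was at 427.6 and 406.9 CPM and at 498.4 and 533.6 CPM (log2 fold change 0.31, adjusted p = 0.0629).

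Differences were small for the other 3 genes. GAPDH, which oxidizes glyceraldehyde 3-phosphate and is widely used as a reference gene, was at 3398 and 3395 CPM in sh-Scb and 2952 and 3449 CPM in sh-SAPCD2 (log2 fold change -0.09, 95% interval -0.34 to 0.17). ENO1, the ubiquitous enolase, had a log2 fold change of 0.04 (95% interval -0.23 to 0.31). PKM, the pyruvate kinase gene, had one of -0.01 (95% interval -0.25 to 0.24). The groups overlapped in all 3 genes, and of the 3 upper bounds that of ENO1 alone reached the fold change of PGK1. The sign for GAPDH, ENO1 and PKM turned when single libraries were left out, and GAPDH was called lower without sh-SAPCD2 replicate 2 (log2 fold change -0.20, adjusted p = 0.0105). ENO1 was called higher without sh-SAPCD2 replicate 1 (log2 fold change 0.15, adjusted p = 0.0179). Counts per gene do not separate the PKM1 and PKM2 splice forms.

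Among the genes that handle pyruvate and lactate, LDHA and PDK1 fell, SLC16A3 rose and 3 did not pass the test. LDHA (hg38 chr11:18394560-18408425, plus strand) encodes the lactate dehydrogenase subunit that favors lactate formation and is a standard HIF and MYC target. It was at 48.1 and 46.7 CPM in sh-Scb and at 23.7 and 19.3 CPM in sh-SAPCD2, 2.21-fold lower in the knockdown (log2 fold change -1.14, SE 0.148, adjusted p = 0.00566). The groups did not overlap, and the fall stood against the direction of the 13 members that rose. Its 6 pseudogenes held counts equal to 2.41% to 3.63% of its own. LDHB, the subunit that favors the reverse reaction, had a level per exon length of 1132 TPM in sh-Scb, against 24.9 TPM for LDHA. It was at 1076 and 1055 CPM in sh-Scb and 1206 and 1332 CPM in sh-SAPCD2 (log2 fold change 0.25, adjusted p = 0.103).

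PDK1 (hg38 chr2:172555373-172608669, plus strand) encodes a kinase that switches off pyruvate dehydrogenase and so keeps pyruvate from being turned into acetyl-CoA. It was at 32.3 and 27.6 CPM in sh-Scb and 15.5 and 13.4 CPM in sh-SAPCD2, 2.07-fold lower (log2 fold change -1.05, SE 0.158, adjusted p = 0.00781). PDK3, a related kinase, was at 12.9 and 14.8 CPM and at 11.2 and 11.1 CPM, also without overlap, but did not pass the test (log2 fold change -0.31, adjusted p = 0.196). With the correction for GC content and length, or without sh-Scb replicate 1, PDK1 stayed called but no longer exceeded a log2 change of 1 in size. Without sh-SAPCD2 replicate 2 neither PDK1 nor LDHA exceeded it.

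SLC16A3 encodes MCT4, the lactate exporter of glycolytic cells, and was a minor transcript here, at 2.13 and 1.82 CPM in sh-Scb and 3.31 and 4.23 CPM in sh-SAPCD2. Its rise (log2 fold change 0.94, SE 0.263, adjusted p = 0.0471) lay close to the threshold and did not pass in DESeq2 (0.0973), without the filter on low counts (0.102), with the correction for GC content and length (0.0747) or without sh-Scb replicate 1 (0.126), sh-Scb replicate 2 (0.251) or sh-SAPCD2 replicate 2 (0.0862). Of its exon bases 5.22% overlap CSNK1D on the other strand, a gene that was also higher (log2 fold change 0.62). SLC16A1, which encodes MCT1 and carries lactate either way, was at 247.8 and 242.8 CPM and at 290.0 and 278.7 CPM (log2 fold change 0.21, adjusted p = 0.144).

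The PFKFB enzymes set the level of fructose 2,6-bisphosphate, the activator of phosphofructokinase. PFKFB3, in which the kinase activity prevails, was at 85.9 and 85.2 CPM in sh-Scb and 114.1 and 130.8 CPM in sh-SAPCD2 and rose (log2 fold change 0.52, SE 0.112, adjusted p = 0.0223). The call was not made without sh-Scb replicate 1 (adjusted p = 0.241) or replicate 2 (0.256). PFKFB4 was at 3.40 and 2.58 CPM and at 3.83 and 5.025 CPM (log2 fold change 0.57, adjusted p = 0.167), a difference similar in size to that of PFKFB3 but measured on 71 to 158 counts.

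The oxygen-sensing genes behaved differently from one another. EGLN3 (hg38 chr14:33924227-34462774, minus strand), a prolyl hydroxylase that is itself a HIF target, was at 8.64 and 6.97 CPM in sh-Scb and 21.3 and 22.3 CPM in sh-SAPCD2, 2.79-fold higher (log2 fold change 1.48, SE 0.17, adjusted p = 0.00417). This was the largest rise among the members. EGLN1, the main hydroxylase in most cells, was at 38.3 and 38.5 CPM and at 48.1 and 48.0 CPM, clearly apart but not past the threshold (log2 fold change 0.32, adjusted p = 0.0864). HIF1A, the alpha subunit that is controlled mostly through protein stability, was at 247.6 and 245.9 CPM and at 322.5 and 265.6 CPM (log2 fold change 0.25, adjusted p = 0.176). EPAS1, which encodes HIF-2 alpha, was at 7.41 and 10.6 CPM and at 8.36 and 8.78 CPM, with overlapping groups (log2 fold change -0.07, adjusted p = 0.846). RNA levels say nothing of the amounts of HIF protein.

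Of the 5 other HIF targets, VEGFA and BNIP3 rose and 3 did not pass the test. VEGFA, the growth factor that drives vessel formation, was at 70.4 and 70.7 CPM in sh-Scb and 116.9 and 131.0 CPM in sh-SAPCD2 (log2 fold change 0.81, SE 0.109, adjusted p = 0.00591). BNIP3, a mitochondrial receptor for autophagy, was at 72.1 and 64.2 CPM and at 100.7 and 108.1 CPM (log2 fold change 0.62, SE 0.114, adjusted p = 0.0143). The groups did not overlap in either gene. BNIP3 has 44 annotated pseudogenes, whose counts equaled 3.12% to 7.29% of its own, and its call was not made without sh-Scb replicate 1 (adjusted p = 0.0945) or replicate 2 (0.235).

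CA9, the carbonic anhydrase often used as a marker of hypoxic tumor tissue, had 10 and 19 counts in sh-Scb and 13 and 20 counts in sh-SAPCD2, or 0.36 to 0.69 CPM. No difference was detectable at this depth (log2 fold change 0.13, 95% interval -1.10 to 1.37), and 35.7% of its exon bases overlap ARHGEF39 on the other strand. ARHGEF39 had 803 and 953 counts in sh-Scb and 372 and 429 in sh-SAPCD2 (log2 fold change -1.17, edgeR adjusted p = 0.0057). ADM, which encodes the vasodilator adrenomedullin, was at 37.7 and 41.1 CPM and at 27.0 and 38.7 CPM (log2 fold change -0.26, adjusted p = 0.356). ANKRD37 was at 5.13 and 5.23 CPM and at 6.39 and 8.36 CPM (log2 fold change 0.51, adjusted p = 0.129), and 40.3% of its exon bases overlap UFSP2. Whether reads were counted by strand is not given in the sources used here, so reads of such overlaps cannot be assigned. Without CA9 and ANKRD37, 13 of 32 members were called higher and 2 lower.

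To compare levels between genes, counts were divided by exon length and scaled to a common total (TPM), and the genes of each step were summed. Glyceraldehyde phosphate dehydrogenase was the most abundant step, at 4494 ± 49.8 TPM in sh-Scb and 4267 ± 443.1 TPM in sh-SAPCD2 (mean ± SD, n = 2 each, as below). Glucose uptake, at 34.4 ± 1.78 and 47.8 ± 1.64 TPM, was the least abundant. The hexokinase step differed most, from 139.6 ± 5.68 TPM in sh-Scb to 259.2 ± 12.7 TPM in sh-SAPCD2, a ratio of 1.86. The ratio was 1.43 for aldolase, 1.42 for phosphofructokinase, 1.39 for glucose uptake and 1.36 for phosphoglycerate mutase.

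The remaining steps differed less. The ratio was 1.25 for phosphoglycerate kinase, 1.24 for triose phosphate isomerase, 1.18 for lactate dehydrogenase, 1.17 for lactate transport and 1.13 for phosphoglucose isomerase. The libraries of both groups overlapped for glyceraldehyde phosphate dehydrogenase (0.95), enolase (1.06) and pyruvate kinase (1.00). Thus 10 of the 13 steps lay higher in both sh-SAPCD2 libraries, an arrangement found in 33.5% of the single genes tested. The steps themselves were not tested. Phosphoglucose isomerase, triose phosphate isomerase and phosphoglycerate kinase rest on GPI, TPI1 and PGK1, which did not pass the test. Neither did LDHB and SLC16A1, which made up most of lactate dehydrogenase and lactate transport. The 3 steps that overlapped all belong to the lower part of the pathway. Lactate dehydrogenase as a step was higher although LDHA fell, because LDHB made up nearly all of its transcripts.

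**Figure D3:**
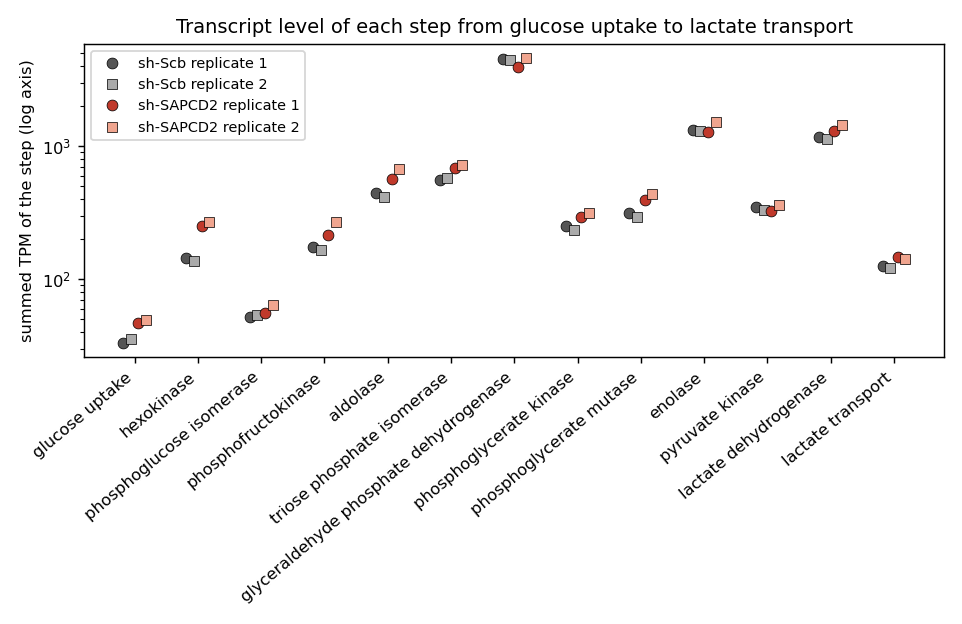
Summed TPM of the genes of each step, in pathway order, on a log axis; gray symbols are the sh-Scb libraries and red symbols the sh-SAPCD2 libraries. Hexokinase shows the widest gap between the groups (139.6 and 259.2 TPM on average), and the groups overlap for glyceraldehyde phosphate dehydrogenase, enolase and pyruvate kinase.

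Within families, the share of each isoenzyme in the TPM of its family was computed per library. With 2 libraries against 2, an exact two-sided permutation test cannot go below 0.33, and that value was reached for every pair or trio in which the shares of the groups did not overlap. HK2 made up 45.8% and 45.2% of hexokinase transcripts in sh-Scb and 63.6% and 62.9% in sh-SAPCD2, a shift of 17.8 points that made it the major form (exact permutation p = 0.33). PFKP went from 38.8% and 38.3% of phosphofructokinase to 48.4% and 50.1%, while PFKM went from 54.6% and 54.9% to 47.0% and 44.2%. Both shifts exceeded the spread within groups.

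EGLN3 held 14.2% and 11.7% of the transcripts of the prolyl hydroxylase pair in sh-Scb and 24.4% and 25.4% in sh-SAPCD2. PDK1 held 74.6% and 68.7% of the PDK1 and PDK3 pair, and 61.9% and 58.7% in the knockdown. LDHA held 2.17% and 2.14% of lactate dehydrogenase, and 0.96% and 0.71% in the knockdown. LDHA was thus the minor form in every library. Smaller shifts without overlap were seen for SLC2A3 (13.9% to 17.7% on average), ENO2 (6.50% to 8.55%), ALDOC (6.45% to 7.68%) and SLC16A3 (0.55% to 0.91%). The shares overlapped between groups for PFKFB3 and PFKFB4 (exact permutation p = 1.0) and for HIF1A and EPAS1 (exact permutation p = 0.667).

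**Figure D4:**
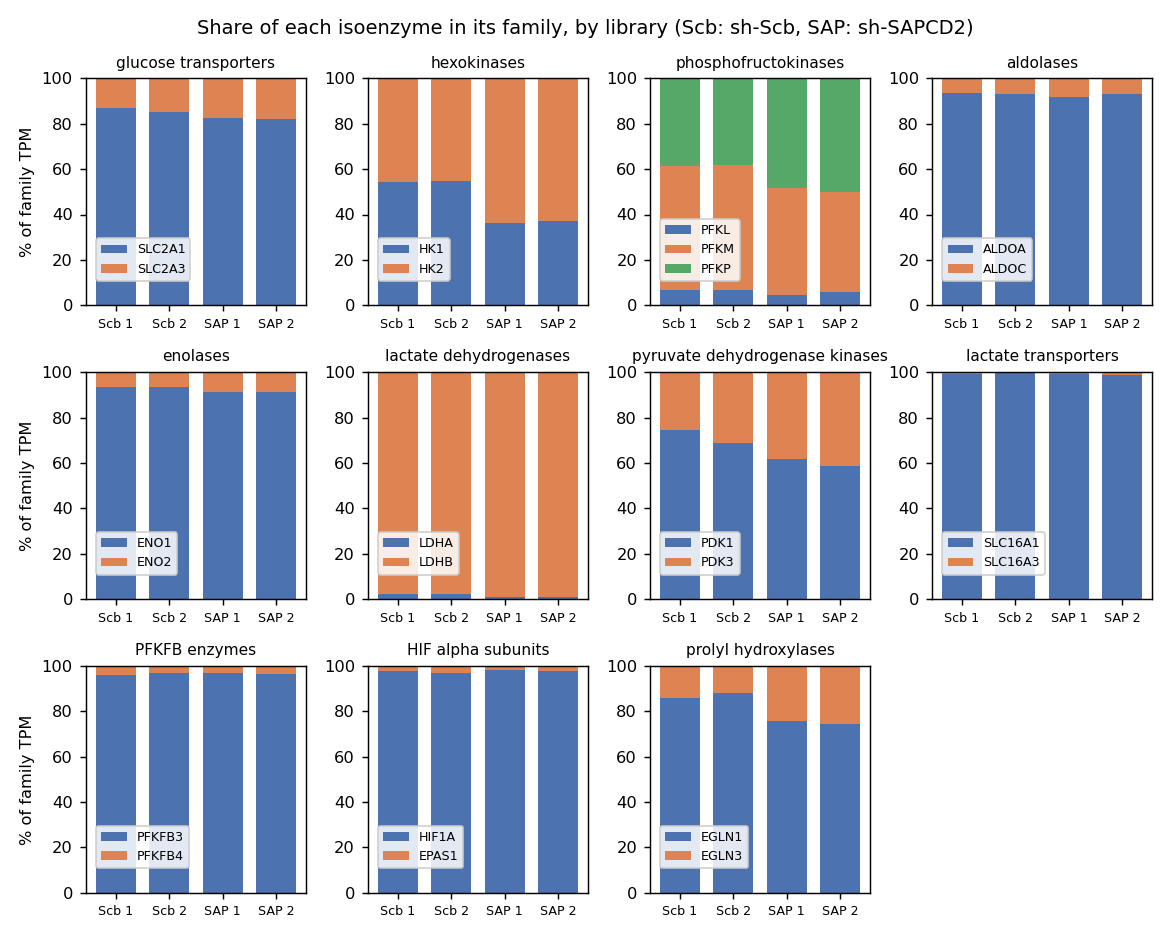
Share of each isoenzyme in the summed TPM of its family, one stacked bar per library on an axis from 0 to 100%. HK2 rises from 45.8% and 45.2% to 63.6% and 62.9%, PFKP from 38.8% and 38.3% to 48.4% and 50.1%, and LDHA stays a thin strip in every library.

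The genes do not lie in one place in the genome. They are spread over 16 chromosomes, with 6 on chromosome 12 (SLC2A3, PFKM, TPI1, GAPDH, ENO2 and LDHB) and 5 on chromosome 10 (HK1, PFKP, PGAM1, PFKFB3 and BNIP3). TPI1 and ENO2 are close neighbors, 42797 bp apart, and GAPDH lies 328745 bp before TPI1. Of the 6 genes on chromosome 12, SLC2A3 and ENO2 rose. Of the 5 on chromosome 10, all but HK1 rose. Over all chromosomes 12.4% of the genes tested were called higher, and an effect of position was not tested.

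Related pathways were counted in the same fit, against the background of 12.4% called higher and 12.5% called lower. Of 18 tested genes for other isoenzymes and transporters, 6 rose and 0 fell; SLC2A6, SLC2A10 and SLC2A13 are named here after their values were seen. The study's enrichment table names at least 2 of the 27 genes listed. The other 3 that rose are as follows. SLC2A4, the insulin-responsive transporter, was at 4.99 and 4.94 CPM in sh-Scb and 10.1 and 10.1 CPM in sh-SAPCD2 (log2 fold change 1.02, adjusted p = 0.0111). TIGAR, a phosphatase that lowers fructose 2,6-bisphosphate, was at 6.83 and 7.26 CPM and at 14.7 and 14.1 CPM (log2 fold change 1.03, adjusted p = 0.00845). HKDC1, a further hexokinase, had 0 counts in both sh-Scb libraries and 12 and 17 in sh-SAPCD2, at least 4.66-fold higher against a floor of 3 counts per library. HKDC1 passed the filter on low counts only through sh-SAPCD2, the group in which it is high, so the count of 6 is no support for a direction. All 3 lay apart between the groups, yet HKDC1 stayed at about 0.5 CPM, a trace beside HK1 and HK2.

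Of the 11 genes for pyruvate entry into mitochondria, 2 rose and 1 fell. PDHX, a structural part of pyruvate dehydrogenase, and PDP2, a phosphatase that activates it, rose (log2 fold changes 0.83 and 0.61, adjusted p = 0.00692 and 0.0181, named after their values were seen). PDK4, another of the inhibitory kinases, fell from 14 and 16 counts to 2 and 0 (ratio 15.4 of sh-Scb over sh-SAPCD2, 95% counting interval 3.92 to 133), and it passed the filter on low counts only through sh-Scb, the group in which it is high. The shares of 18.2% higher and 9.09% lower lay near the background, and 8 of the 11 genes did not pass the test.

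Of 16 tested genes of glycogen metabolism and gluconeogenesis, 2 rose and 2 fell, shares of 12.5% each way that lay at the background. Among those that fell was SLC37A4, the glucose 6-phosphate transporter of the endoplasmic reticulum. It was at 85 and 75.8 CPM in sh-Scb and at 35.8 and 40.8 CPM in sh-SAPCD2 (log2 fold change -1.07, SE 0.129, adjusted p = 0.00473), and the groups did not overlap. FBP1, the gluconeogenic fructose bisphosphatase, and PYGL, a glycogen phosphorylase, rose (log2 fold changes 0.98 and 0.83, adjusted p = 0.00731 and 0.0125). Both are named after their values were seen, and the study's enrichment table names both.

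Of 14 genes of the HIF machinery, SIAH2, a ubiquitin ligase that targets prolyl hydroxylases, rose (log2 fold change 0.47, adjusted p = 0.0474). HIF1AN, the asparaginyl hydroxylase that blocks HIF activity, fell (log2 fold change -0.62, adjusted p = 0.012), and the other 12 did not pass the test. Both genes are named after their values were seen. The shares of 7.14% each way lay below the background of 12.4% and 12.5%. The median log2 fold change of the 14 was -0.0094. Of 36 further HIF targets tested, 10 rose (27.8%) and 1 fell (2.78%, ZNF395, named after its values were seen), with a median log2 fold change of 0.36. The study's enrichment table names at least 13 of the 37 listed, so this count is not independent of these libraries either. STC1, a secreted glycoprotein hormone, was at 3.435 and 3.59 CPM in sh-Scb and 19.5 and 17.8 CPM in sh-SAPCD2 (log2 fold change 2.41, SE 0.169, adjusted p = 0.00201). P4HA2, a collagen prolyl hydroxylase, was at 2.64 and 3.67 CPM and at 12.4 and 13.8 CPM (log2 fold change 2.05, SE 0.223, adjusted p = 0.00378). NOL3, an inhibitor of apoptosis, was at 40.1 and 37.4 CPM and at 67.5 and 99.7 CPM (log2 fold change 1.11, SE 0.196, adjusted p = 0.0124).

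Several of these genes, VEGFA among them, are also known targets of ATF4 and of the stress response. Of 12 genes of that response 5 rose (41.7%, against 12.4% of the genes tested) and 0 fell (against 12.5%). The log2 fold changes were 2.05 for SESN2, 1.25 for TRIB3, 1.20 for CEBPB, 1.19 for DDIT3 and 0.38 for PSAT1 (the last named after its values were seen). The study's enrichment table names at least 7 of the 12, so this count is not independent of these libraries. How far the rise of shared targets such as VEGFA followed either response was not tested.

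**Figure D5:**
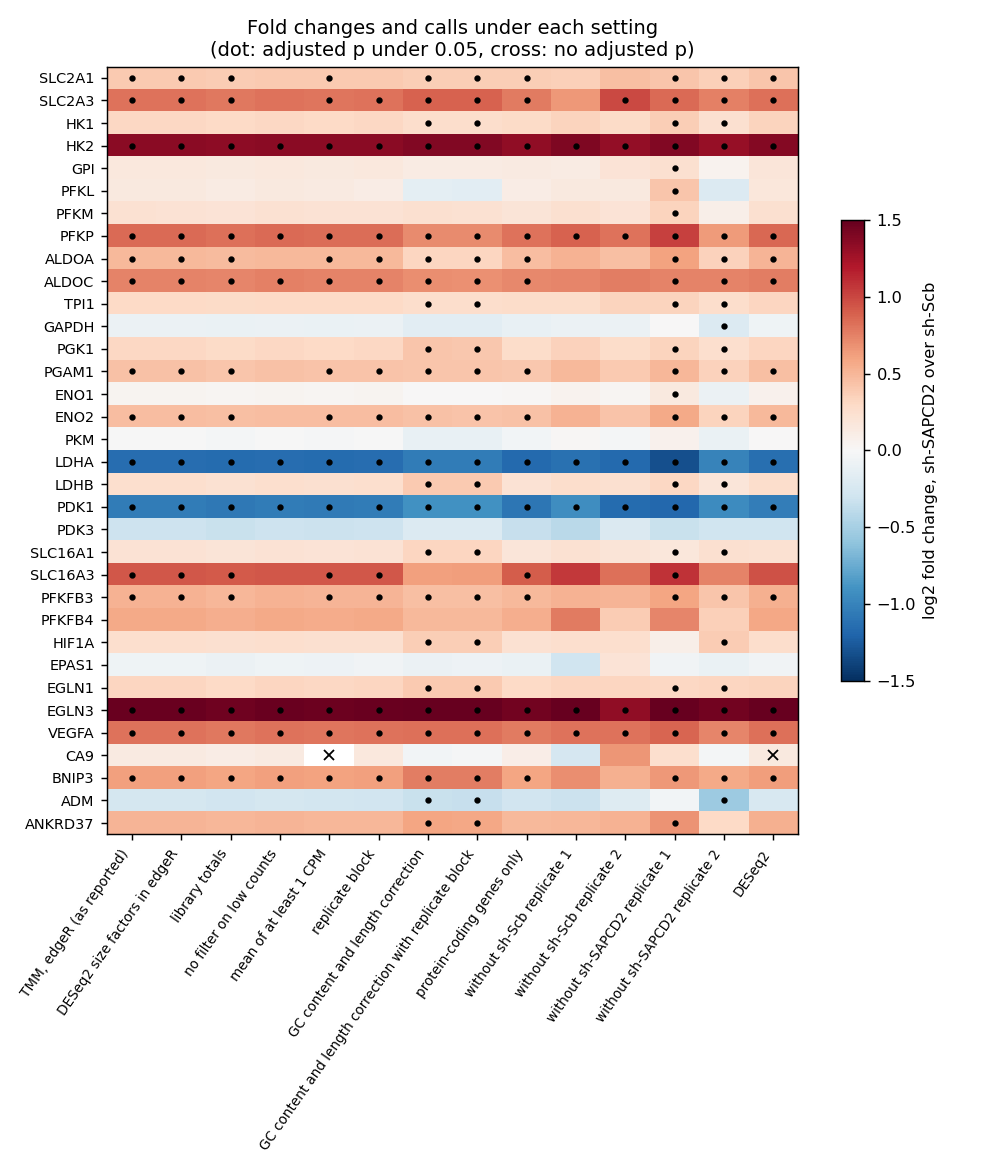
Log2 fold change of each gene (color, sh-SAPCD2 over sh-Scb) under the reported fit and 13 alternatives; a dot marks an adjusted p under 0.05 and a cross a setting with no adjusted p. The rows of HK2, PFKP, EGLN3, VEGFA, LDHA and PDK1 carry a dot in every column.

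The map of fold changes by setting shows that colors hardly changed along most rows, while the number of dots did. HK2 ranged from 1.31 to 1.40, EGLN3 from 1.33 to 1.64, LDHA from -1.31 to -0.999 and PDK1 from -1.18 to -0.91 over the alternatives. PFKP ranged more widely, from 0.63 to 1.02. With the correction for GC content and length, 20 members were called higher, against 22.5% of all genes.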

How the data were processed

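Total RNA of SK-N-BE(2) cells was sequenced as 150 bp paired-end reads. Alignment to hg38 was done by the authors in HISAT2 2.2.0 and quantification in StringTie, and they deposited unscaled whole-number counts per gene. The annotation release, the strand setting and the treatment of multiply aligned reads are not given in the sources used here. Groups came from the labels.

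Counts were scaled by TMM and tested in edgeR 4.0.16 by quasi-likelihood (R 4.3.3, two-sided, Benjamini-Hochberg over 18779 genes) after filterByExpr (minimum count 10, minimum total 15). The biological coefficient of variation was 15.4%. CPM are TMM-scaled, and TPM used merged exon lengths of GENCODE 44. Windows of 250 bases before the start came from RefSeq (GRCh38.p14). Alternatives were DESeq2 1.42.0, its size factors, library totals, other filters, the replicate block, a loess correction for GC content and length (span 0.3), protein-coding genes and leaving out each library. The test was tried on simulated data. Every member is named, and of other lists up to 8 genes that passed the threshold of 0.05 and changed by over 1 on the log2 scale, others being marked in the text. Some genes of the related lists, and counts of the lists that need them, are not reported here. The members and lists were chosen with earlier results of these data known.

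The labels number replicates but do not say that same-numbered libraries share a batch, so the numbers were not taken to pair libraries. Deviations of same-numbered libraries correlated at -0.0188, a value that does not settle whether they were paired. Python 3.11.15 with pandas 2.3.3, scipy 1.17.1 and matplotlib 3.10.9 was used for shares and figures.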

Additional observations from a re-analysis of the deposited data

How the results depend on the processing

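The SAPCD2 log2 fold change kept its direction in all alternatives, and its adjusted p was 0.0749 (log2 fold change -0.91) without the filter on low counts. Leaving out each library gave -1.23 to -0.68 for SAPCD2, 4 to 24 members higher, 2 to 4 lower, 2 to 4 higher and 0 to 2 lower past a log2 change of 1, and a median of 0.28 to 0.35. A group left with 1 library was assumed to vary like the other. Members called higher were 6 without the filter and 20 with the correction for GC content and length, with or without the replicate block. Lower past a log2 change of 1, 1 member remained with that correction, with or without the replicate block. The replicate block alone gave 12 members higher, with 15.2% of the genes tested called higher. It lost SLC2A1 (adjusted p = 0.0735) and changed no other member's call. DESeq2 gave 12 higher, with 16.7% of the genes it tested called higher, and lost SLC16A3.

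Fold changes turned direction only for members that were not called, and share differences turned for PFKFB3 and PFKFB4. Leaving out each library gave -0.21 to 0.41 for PFKL, -0.26 to 0.67 for CA9, -0.20 to 0.0054 for GAPDH, -0.093 to 0.15 for ENO1, -0.095 to 0.061 for PKM and -0.30 to 0.21 for EPAS1, and share differences of -0.534 to 0.335 points for PFKFB3 and -0.335 to 0.534 for PFKFB4. With the GC and length correction PFKL was at -0.15 and CA9 at -0.038, and with the replicate block added at -0.16 and -0.014. PKM was at 0.011 in DESeq2. With counts not divided by exon length, the share difference was 1.72 points for ENO2 and -1.72 for ENO1, -2.58 for LDHA and 2.58 for LDHB, 0.515 for SLC16A3 and -0.515 for SLC16A1, and 14.3 for EGLN3 and -14.3 for EGLN1. CA9 had no value at a mean of at least 1 CPM and no adjusted p in DESeq2. The causes were not tested. CA9 rested on 10 to 20 counts a library.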
